A study of Mus musculus with 9 samples.

Results

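The genes that build cholesterol and fatty acids were followed in the hippocampus of male SAMP10/TaSlc mice, an inbred senescence-accelerated strain, across a control diet and 2 diets with soybean extract. The members were 35 gene symbols of these pathways, and every probe set that carried exactly 1 of them in the platform annotation and held a value on all arrays was used. This gave 36 probe sets for 33 genes, out of 21959 probe sets tested, which cover 16429 singly named genes. The sterol branch had 25 probe sets for 23 genes, and the fatty acid branch 11 probe sets for 10 genes. Idi1, Fdft1 and Acaca had 2 probe sets each. Acat2 had no probe set of its own and was not analysed here, and the symbol Sc4mol is an older name of Msmo1, under which that gene was listed. A further probe set that names Srebf2 among several genes was not used. No member probe set was lost to a missing value.

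Each of the 3 diets was measured on 3 arrays of a 1-colour Affymetrix type. Control mice ate the CE-2 standard chow, and the yellow soybean and green soybean groups ate it with 3.0% of an extract of the named soybean, from 1 to 12 months of age. The study kept 5 diet groups of 12 mice with 6 to a cage, and 3 of these groups were analysed here. The design text names cognitive function in old mice as the question behind the diets. Sample titles read SMP30 where the strain label reads SAMP10, and the latter is used here. The labels do not tell if 1 mouse or a pool was hybridised to an array, if arrays came from separate mice, or which cage was used. What the p-values measure is the spread between these samples, which may be technical, and cage and diet cannot be told apart.

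Cells keep their cholesterol steady by feedback. The transcription factor SREBP-2, encoded by Srebf2, is held in the endoplasmic reticulum with its escort Scap by the Insig proteins while sterols are plentiful, and travels to the Golgi to be cut and activated when sterols run low. It then switches on the enzymes that carry carbon from acetyl-CoA through mevalonate and squalene to cholesterol, while its relative SREBP-1, encoded by Srebf1, acts mainly on fatty acid synthesis. Cholesterol of the adult brain is made locally, because plasma lipoproteins do not cross the blood-brain barrier. Astrocytes are a main source, and oligodendrocytes use large amounts of sterol and fatty acid for myelin.

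The promoters of the member genes are described first. Whether their motifs bear on how the genes varied on the arrays was not tested. In the RefSeq table of mouse promoters (build GRCm38.p6), 19 of the 23 sterol genes and 7 of the 10 fatty acid genes had an entry, with up to 3 promoters per gene. The 250 bases before each transcription start were searched on both strands for short motifs, and a match is only a match of letters. The pentamer CCAAT, the core of the site that the factor NF-Y binds, was found for 18 of the 19 sterol genes and 3 of the 7 fatty acid genes. Of the 27025 genes in the table, 37.5% held it, and of the 17491 coding genes 39.5%. The GC box GGGCGG, the core of a site of Sp1-type factors, was found for 17 of 19 and 3 of 7, against 35.4% of all genes and 45.8% of coding genes. The sterol regulatory element form TCACNCCAC was found for 1 sterol gene, Hmgcs1, and 0 fatty acid genes, against 1.22% of all genes. A longer exact form of the same element was found for 0 genes of either branch, against 0.0814%.

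Hmgcs1 encodes the cytosolic synthase that makes 3-hydroxy-3-methylglutaryl-CoA, and its promoter carried the sterol element. The stretch below lies on the plus strand at chr13:119690106-119690318, upstream of the transcription start. Capitals mark the TCACNCCAC match, which begins 137 bases before the start, and 3 copies of CCAAT on the opposite strand, read as ATTGG, which begin 237, 176 and 45 bases before it.
Hmgcs1: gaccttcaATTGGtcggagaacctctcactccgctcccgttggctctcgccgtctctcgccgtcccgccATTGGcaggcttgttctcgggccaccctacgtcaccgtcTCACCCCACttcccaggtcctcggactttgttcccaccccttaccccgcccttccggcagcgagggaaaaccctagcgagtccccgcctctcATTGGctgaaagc

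For 6 sterol genes with array values in full below, capitals mark the CCAAT match nearest the start, or its reverse complement ATTGG. Their stretches are shorter and are written along the strand of the gene. They lie upstream of the start at chr5:28071168-28071228 (plus strand) for Insig1, chr5:114444227-114444268 (plus) for Mvk, chr13:8885564-8885605 (plus) for Idi1, chr8:64733601-64733661 (minus) for Msmo1, chrX:72918473-72918520 (plus) for Nsdhl and chr9:42264301-42264352 (minus) for Sc5d.
Insig1: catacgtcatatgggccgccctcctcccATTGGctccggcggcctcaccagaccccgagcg
Mvk: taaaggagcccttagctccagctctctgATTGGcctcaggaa
Idi1: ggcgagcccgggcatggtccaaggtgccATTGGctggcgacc
Msmo1: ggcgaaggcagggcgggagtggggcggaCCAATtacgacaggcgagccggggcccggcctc
Nsdhl: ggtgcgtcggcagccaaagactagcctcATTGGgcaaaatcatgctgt
Sc5d: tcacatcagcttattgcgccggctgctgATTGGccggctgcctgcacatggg
The match begins 216 bases before the start in Insig1, 14 in Mvk and in Idi1, 55 in Msmo1, 20 in Nsdhl and 24 in Sc5d. In 5 of these 6 genes the match nearest the start thus lies in the last 55 bases before it, and in Insig1 further upstream. Any match further from the start is not shown.

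All array values below are the authors' normalized score, and a difference is a difference of mean scores. The base of the underlying logarithm is not stated. If it is 10, a difference of 0.1 is about 1.18-fold and one of 0.3 about 1.63-fold. For Insig1, Pmvk and Tm7sf2 the authors had subtracted the control mean, so that their scores show deviations and not levels. Scores of different probe sets are not compared as amounts. In bulk tissue, fewer cells of a type and less RNA per cell cannot be told apart. Green soybean replicate 3 was the least like the rest of the set, its scores correlating with those of each other array at 0.958 on average, where the remaining 8 arrays had 0.977 to 0.981. The median score of an array lay between 0.156 and 0.216, and green soybean arrays had a median difference from control over all probe sets of 0.0296. All 8 hippocampal neuron marker genes listed were measured, with a summed score of 6.42 to 6.98 in controls, 6.39 to 7.27 with yellow soybean and 5.24 to 7.49 with green soybean. The value of 5.24 was that of green soybean replicate 3. Its mean deviation of these markers from control was -0.166, against 0.0844 and 0.0618 on the other green arrays. A Zbtb20 probe set in these sums (10435769) was centred on the controls.

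No member of either branch passed the test in any comparison. With limma over all 9 arrays and Benjamini-Hochberg adjustment over the 21959 probe sets, 0 of 36 member probe sets had an adjusted p below 0.05 for green soybean against control, yellow soybean against control, green against yellow soybean, or any difference among the 3 diets, and the share over all probe sets was 0% in each. The smallest adjusted p of a member was 0.469, for Insig1 with green soybean against control. At an unadjusted p below 0.05 there was 1 of 36 members for green soybean against control, where 9.72% of all probe sets were, 0 of 36 for yellow soybean (3.04%), 0 of 36 for green against yellow soybean (7.10%) and 0 of 36 for any difference (7.06%). The standard error of a member's difference had a median of 0.0644 and ran from 0.0478 to 0.198. The 95% interval of the difference lay within 0.3 of 0 on both sides for 32 of 36 probe sets with green soybean against control, 33 with yellow soybean against control and 31 with green against yellow soybean. The wider intervals belonged to Idi1, Fdps and Fdft1 in each comparison, and to Nsdhl or Scd2 in some.

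**Figure D1:**
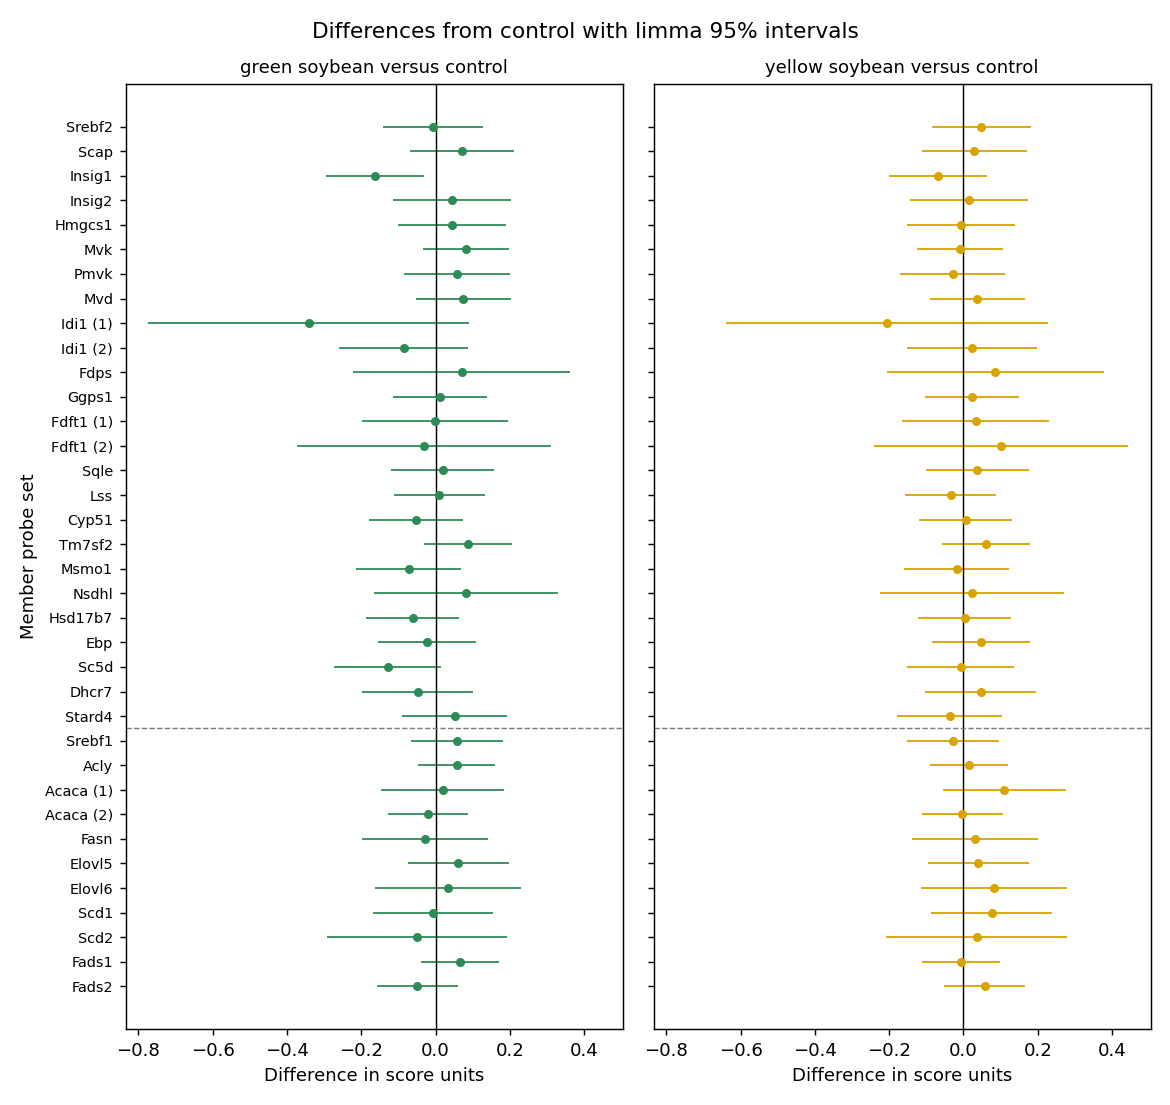
Difference of mean score from control for each of the 36 member probe sets (vertical axis, sterol branch above the dashed line and fatty acid branch below it) with green soybean (left) and yellow soybean (right), in score units on the horizontal axis. Points are limma estimates from 3 arrays per diet and bars are 95% intervals; the interval of Insig1 with green soybean, -0.295 to -0.0305, is the one that does not reach 0.

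With green soybean against control, 19 of 36 differences were above 0 and 17 below, with a median of 0.0108, where 65.0% of all probe sets were above 0. In the sterol branch 13 were above and 12 below, which became 8 and 17 with array medians aligned and 12 and 13 after quantile normalization. In the fatty acid branch 6 were above and 5 below, which became 4 and 7, and 5 and 6, under the same scalings. Without green soybean replicate 3 the splits were 18 above and 7 below in the sterol branch, and 9 and 2 in the fatty acid branch. Without control replicate 1 the sterol branch stood at 10 and 15, and without green soybean replicate 2 at 11 and 14, and the fatty acid branch stood at 4 and 7 without green soybean replicate 1. The direction of either branch against 0 thus turned with the scaling and with single arrays. Aligning medians moved the median over all probe sets as well, from 0.0296 to -0.0205. The sterol median went from 0.0102 to -0.0399 and the fatty acid median from 0.019 to -0.0311. Both branch medians were below that of all probe sets before and after this scaling. Most members score high, however: 31 of the 33 uncentred ones averaged above 0.176, the median score over uncentred probe sets. When only the 10980 probe sets with the higher average scores were kept, the median difference over them was 0.00848. The kept sterol probe sets then had a median of -0.000805 and the fatty acid ones 0.019, on either side of it. The members are thus not shown to lag behind probe sets of like score. In 4 members (Mvk, Tm7sf2, Acly and Fads1) every green soybean array exceeded every control array, as in 13.2% of all probe sets, and in 1 member (Insig1) every green soybean array was below every control, as in 2.67%.

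With yellow soybean against control, 24 differences were above 0 and 12 below, with a median of 0.0231, where 60.4% of all probe sets were above 0. The sterol branch had 16 above and 9 below, which became 10 and 15 with medians aligned and 14 and 11 after quantile normalization. The fatty acid branch had 8 above and 3 below, which became 7 and 4, and 8 and 3. Aligning medians also moved the median over all probe sets, from 0.014 to -0.0149. Without yellow soybean replicate 1 the sterol branch stood at 22 above and 3 below, and without yellow soybean replicate 3, or without control replicate 1, at 8 above and 17 below. The fatty acid branch stood at 5 and 6 without yellow soybean replicate 1. In no member did the 3 yellow arrays lie above or below the 3 control arrays, against 6.65% and 2.65% of all probe sets.

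Green and yellow soybean diets were also set against each other. Here 14 differences were above 0 and 22 below, with a median of -0.0263, where 58.0% of all probe sets were above 0. The median over all probe sets was 0.0147, and -0.00472 over the 10980 with the higher average scores. Among the latter the sterol median was -0.0338 and the fatty acid median -0.0475. The sterol branch had 10 above and 15 below under all 3 scalings, and the fatty acid branch 4 above and 7 below, or 3 and 8 with medians aligned. Without green soybean replicate 3 these splits were 15 and 10, and 7 and 4. The green arrays lay above the yellow arrays in 2 members, Mvk and Fads1 (7.63% of all probe sets), and below them in 1, Fads2 (2.92%). The comparisons of green and of yellow soybean with control share the control arrays.

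**Figure D2:**
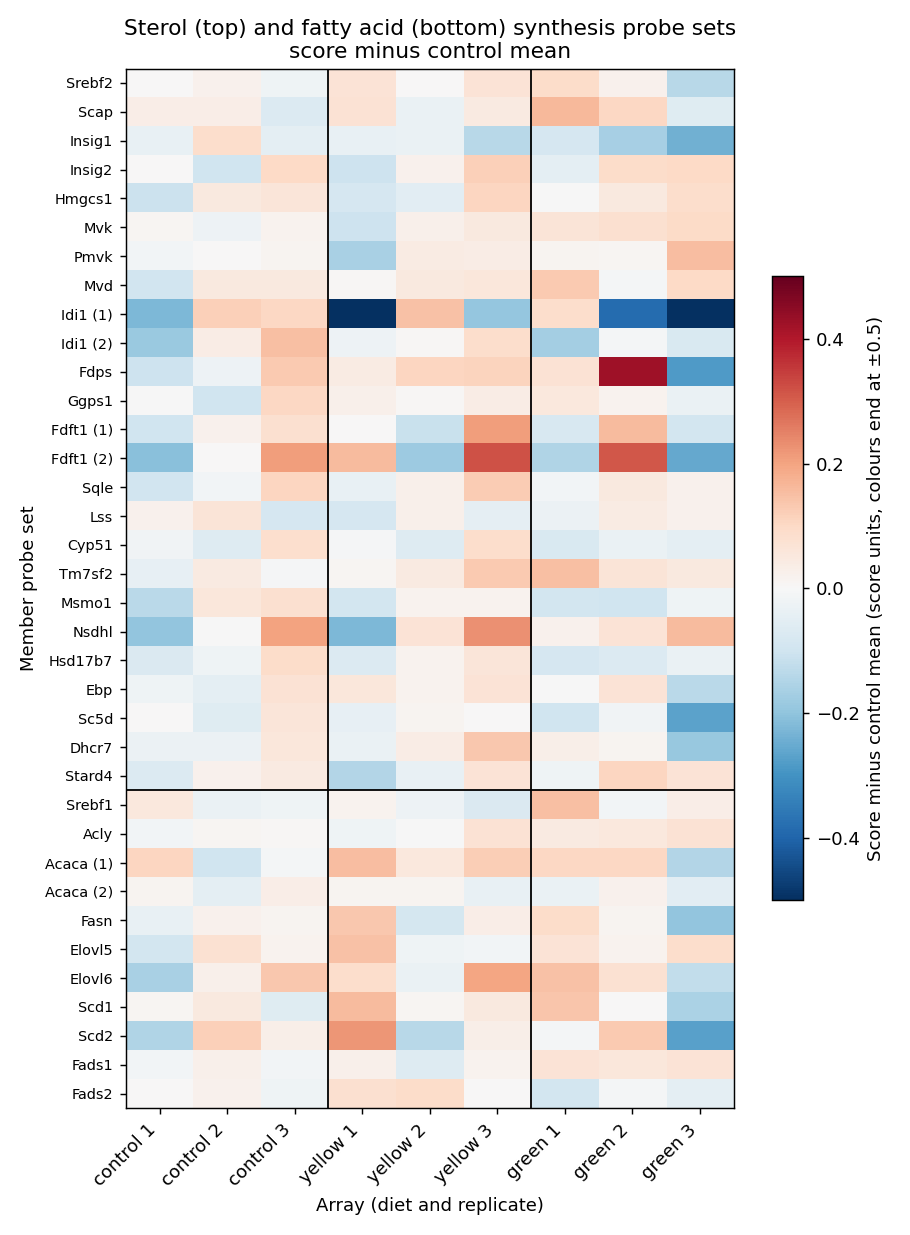
Score minus the control mean, in score units (colour, ends at 0.5 on either side), for the 36 member probe sets (rows, sterol branch above the line) on the 9 arrays (columns, by diet and replicate). Columns of control replicate 1 and yellow soybean replicate 1 are mostly blue in the sterol rows and columns of control replicate 3 and yellow soybean replicate 3 mostly red, while colours do not separate the diets.

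Among the regulators, Insig1 was the member with the smallest p for green soybean. Insig1 retains Scap and SREBP in the endoplasmic reticulum and is itself a target gene of SREBP; it lies at chr5:28071412-28078662. Its scores, centred on the controls, were -0.0388, 0.0867 and -0.0478 on the control arrays, -0.0371, -0.0313 and -0.137 with yellow soybean, and -0.0837, -0.166 and -0.239 with green soybean. All 3 green arrays lay below all 3 control arrays, and the yellow arrays spanned the gap between them. The difference of green soybean from control was -0.163 ± 0.0607 (SE, n = 3 arrays per diet), with a limma p of 0.02 and adjusted p = 0.469. It ran from -0.202 to -0.12 as each array was left out in turn. With yellow soybean the difference was -0.0686 (95% interval -0.201 to 0.0638).

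Insig2, the second Insig protein, averaged 0.979 ± 0.1 (SD, n = 3) in controls, 0.993 ± 0.114 with yellow soybean and 1.02 ± 0.0818 with green soybean. Srebf2 averaged 1.19 ± 0.0198 in controls, 1.24 ± 0.036 with yellow soybean and 1.18 ± 0.12 with green soybean, and its 3 green arrays read 1.28, 1.21 and 1.05. The low array was green soybean replicate 3. Scap, the sterol sensor that escorts SREBP, averaged 0.984 ± 0.0558, 1.01 ± 0.0545 and 1.05 ± 0.115 in the same order, and green soybean replicate 3 was again the lowest of its diet at 0.927. Srebf1, counted with the fatty acid branch, averaged 0.46 ± 0.0456, 0.432 ± 0.0452 and 0.517 ± 0.0837. For these 4 regulators the 95% interval of every difference between diets included 0, and the arrays of the diets overlapped.

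In the mevalonate branch, 6 of 8 probe sets had a difference above 0 with green soybean against control (4 with array medians aligned) and 4 of 8 with yellow soybean. Mvk, the kinase that phosphorylates mevalonate, scored 0.374, 0.342 and 0.382 on the control arrays, 0.264, 0.392 and 0.416 with yellow soybean, and 0.432, 0.447 and 0.463 with green soybean. The green arrays lay above all the others, within a narrow range, and yellow soybean replicate 1 was the lowest of the 9. Green soybean differed from control by 0.0812 (95% interval -0.0342 to 0.197, limma adjusted p = 0.642) and from yellow soybean by 0.0898 ± 0.0529 (SE; adjusted p = 0.763). The second of these fell to 0.0432 without yellow soybean replicate 1.

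Idi1, the isomerase that converts isopentenyl to dimethylallyl diphosphate, had probe sets that did not behave alike. The first (10403413) scored 0.274, 0.615 and 0.601 on the control arrays, -0.0707, 0.643 and 0.302 with yellow soybean, and 0.584, 0.113 and -0.23 with green soybean. Its values were scattered over each diet and the diets overlapped. Its difference of green soybean from control was -0.341 ± 0.198 (SE; limma adjusted p = 0.605), which became -0.148 without green soybean replicate 3 and -0.555 without green soybean replicate 1. The second (10482762) scored 0.211, 0.433 and 0.547, then 0.373, 0.403 and 0.483, and then 0.227, 0.388 and 0.32 in the same order of diets, with a difference of -0.0851 ± 0.0796. Whether both detect the transcript of Idi1 was not tested.

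Hmgcs1 scored 0.944, 1.1 and 1.11 on the control arrays, 0.969, 1 and 1.16 with yellow soybean, and 1.05, 1.1 and 1.14 with green soybean. The green soybean range was the narrowest and lay within that of yellow soybean. Its difference of green soybean from control was 0.0434 (95% interval -0.102 to 0.189). Pmvk, the kinase that follows Mvk, was centred and scored -0.162 on yellow soybean replicate 1 and 0.153 on green soybean replicate 3, with the other arrays between -0.0143 and 0.0399. Mvd, the decarboxylase that yields isopentenyl diphosphate, averaged 0.122 ± 0.0838 (SD, n = 3) in controls, 0.159 ± 0.0281 with yellow soybean and 0.196 ± 0.074 with green soybean.

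Fdps, which makes farnesyl diphosphate, scored 0.569, 0.65 and 0.804 in controls, 0.716, 0.781 and 0.786 with yellow soybean, and 0.745, 1.1 and 0.391 with green soybean. Both the highest and the lowest of the 9 arrays were thus green soybean arrays. Ggps1, which extends farnesyl to geranylgeranyl diphosphate for protein prenylation, averaged 0.5 ± 0.101 (SD, n = 3), 0.523 ± 0.0148 and 0.512 ± 0.0439 in the same order of diets.

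In the steps from squalene to cholesterol, 4 of 12 probe sets had a difference above 0 and 8 below with green soybean against control (median -0.0272), 9 and 3 with yellow soybean against control (median 0.0282), and 3 and 9 with green against yellow soybean (median -0.0558). With array medians aligned the splits were 2 and 10, 6 and 6, and 3 and 9, and without green soybean replicate 3 the first was 8 and 4 and the last 4 and 8. Without control replicate 1 or yellow soybean replicate 3, the split for yellow soybean against control was 3 and 9. None of these probe sets passed the test. Sc5d, the sterol C5 desaturase near the end of the pathway, scored 0.93, 0.869 and 0.991 on the control arrays, 0.89, 0.945 and 0.933 with yellow soybean, and 0.83, 0.912 and 0.662 with green soybean. Green soybean replicate 3 was the lowest of the 9 arrays, replicate 1 the next lowest, and replicate 2 lay within the control range. The difference of green soybean from control was -0.129 ± 0.0656 (SE; 95% interval -0.272 to 0.0146, limma adjusted p = 0.553), and without green soybean replicate 3 it was -0.059.

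**Figure D3:**
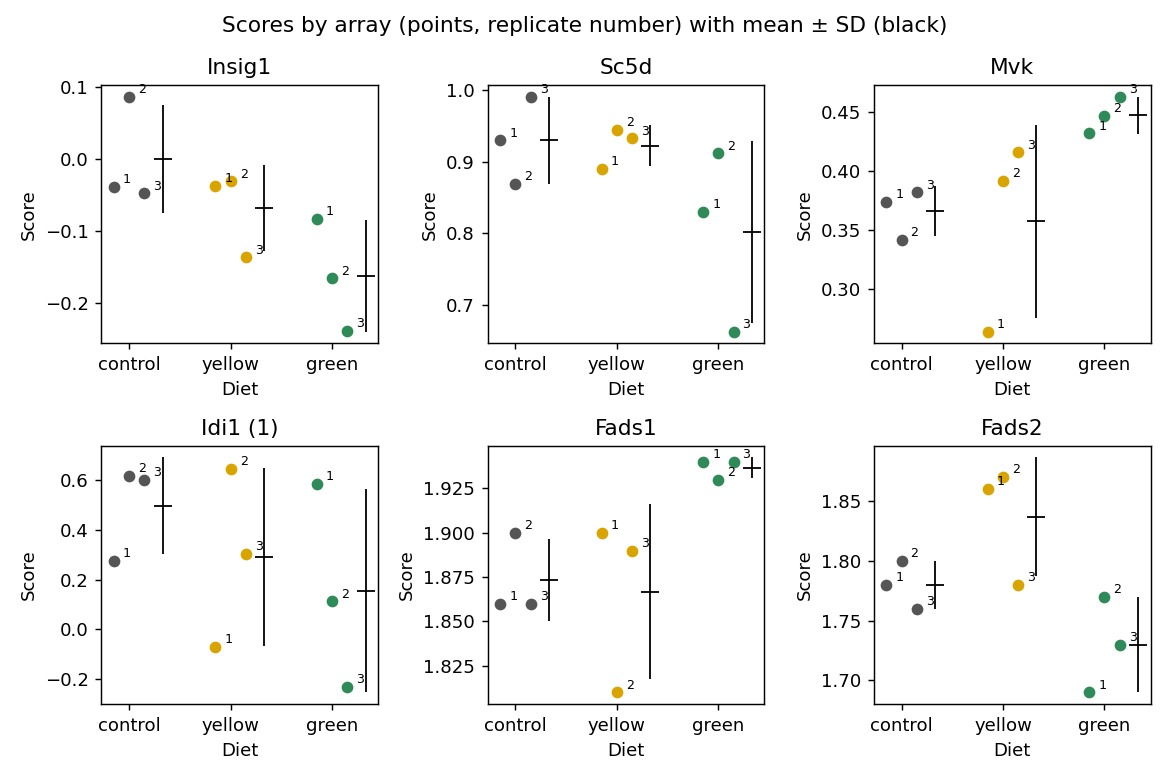
Scores on the 9 arrays (points, with the replicate number) for Insig1, Sc5d, Mvk, the first Idi1 probe set, Fads1 and Fads2, by diet, with mean and SD of the 3 arrays in black; the vertical axis is the authors' score and differs between panels. The green soybean points of Mvk and Fads1 lie above all others and those of Insig1 below all controls, while Sc5d and Idi1 have their lowest point on green soybean replicate 3.

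Fdft1, the squalene synthase that commits carbon to sterols, was read by 2 probe sets that varied together. The first scored 1.17, 1.29 and 1.35 in controls, 1.27, 1.16 and 1.48 with yellow soybean, and 1.19, 1.43 and 1.18 with green soybean. The second scored 1.04, 1.25 and 1.46, then 1.41, 1.07 and 1.57, and then 1.1, 1.56 and 0.995. On both, yellow soybean replicate 2 was the lowest of its diet and green soybean replicate 2 the highest, and the differences between diets were small beside this scatter (-0.000805 and -0.0314 for green soybean against control). Sqle, the squalene epoxidase and a control point of the pathway, scored 0.659, 0.741 and 0.864, then 0.717, 0.78 and 0.882, and then 0.742, 0.805 and 0.777. Its difference from control was 0.0195 with green soybean (95% interval -0.119 to 0.158) and 0.038 with yellow soybean (-0.101 to 0.177).

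Lss, the cyclase that forms lanosterol, averaged 0.409 ± 0.0757 (SD, n = 3) in controls, 0.375 ± 0.055 with yellow soybean and 0.419 ± 0.0362 with green soybean. Cyp51, the lanosterol demethylase, averaged 0.482 ± 0.0766, 0.488 ± 0.0762 and 0.43 ± 0.0224. Tm7sf2, a sterol reductase, was centred and averaged 0 ± 0.0436, 0.0609 ± 0.0615 and 0.0881 ± 0.0554. Its green arrays, at 0.152, 0.0629 and 0.0497, lay just above the highest control at 0.046 (limma adjusted p = 0.624).

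Msmo1, a methyl sterol monooxygenase, scored 0.915, 1.11 and 1.13 in controls, 0.959, 1.07 and 1.07 with yellow soybean and 0.961, 0.951 and 1.03 with green soybean. Nsdhl, the sterol dehydrogenase that acts with it in removing methyl groups, scored 0.695, 0.887 and 1.09, then 0.665, 0.958 and 1.12, and then 0.914, 0.959 and 1.05. Hsd17b7, the reductase of the same steps, scored 0.268, 0.318 and 0.43, then 0.272, 0.356 and 0.399, and then 0.255, 0.272 and 0.304. In all 3 genes control replicate 1 and yellow soybean replicate 1 were the lowest arrays of their diet. Their differences of green soybean from control were -0.0723, 0.082 and -0.0613, each with a 95% interval that included 0.

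Ebp, the sterol isomerase, averaged 0.436 ± 0.0626 (SD, n = 3) in controls, 0.483 ± 0.0247 with yellow soybean and 0.413 ± 0.103 with green soybean. Dhcr7, the reductase of 7-dehydrocholesterol, scored 0.625, 0.624 and 0.712, then 0.62, 0.692 and 0.789, and then 0.684, 0.669 and 0.465. Green soybean replicate 3 was the lowest array in both genes. Stard4, a soluble carrier of cholesterol between membranes, scored -0.122, -0.0346 and -0.00925 in controls, -0.201, -0.0911 and 0.0142 with yellow soybean and -0.0763, 0.0527 and 0.0124 with green soybean, and its diets overlapped.

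The clearest structure in the sterol genes was between arrays of the same diet, and this pattern was noticed after the values had been seen. Control replicate 3 was the highest control array in 18 of 25 sterol probe sets and control replicate 1 in 0, while replicate 1 was the lowest in 14. Among the yellow soybean arrays, replicate 3 was the highest in 17 and replicate 1 the lowest in 17. Among the green soybean arrays the order was less uniform, with replicate 3 lowest in 12 and replicate 2 highest in 10. Over all probe sets tested, control replicate 3 was the highest control array in 39.8%, and control replicate 1 the highest in 36.6% and the lowest in 31.5%. Yellow soybean replicate 3 was the highest of its diet in 38.7% and replicate 1 the lowest in 31.3%. Green soybean replicate 3 was the lowest of its diet in 42.1% and replicate 2 the highest in 25.3%.

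**Figure D4:**
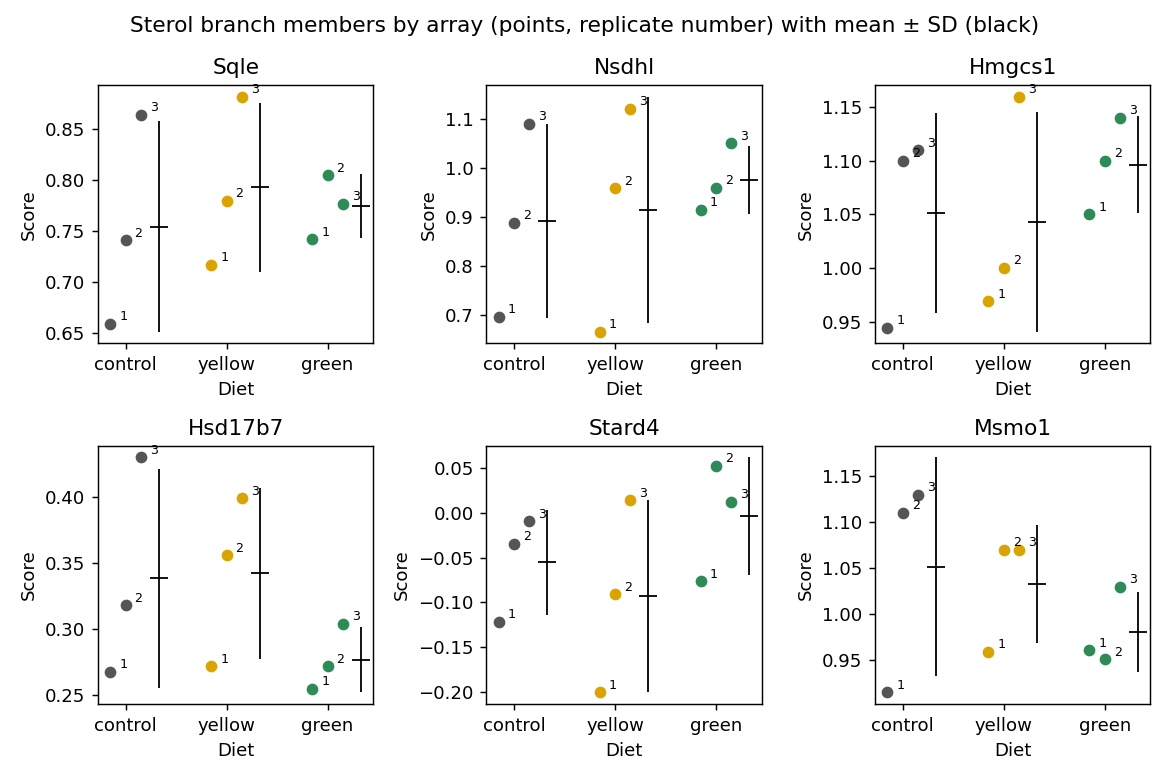
Scores on the 9 arrays (points, with the replicate number) for 6 sterol genes, Sqle, Nsdhl, Hmgcs1, Hsd17b7, Stard4 and Msmo1, by diet, with mean and SD of 3 arrays in black; the vertical axis is the authors' score and differs between panels. In each panel replicate 1 is the lowest control and the lowest yellow soybean array, and the 3 diets cover overlapping ranges. The genes were chosen after their values were seen. Over all 25 sterol probe sets, replicate 1 was the lowest control in 14 and the lowest yellow soybean array in 17.

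As a description, the deviations of the 25 sterol probe sets from their diet means had a mean pairwise correlation of 0.257 over 300 pairs and 9 arrays, with no test. It was 0.356 among the 12 probe sets from squalene to cholesterol, 0.252 among the 8 of the mevalonate branch, 0.148 among the 11 of the fatty acid branch and 0.0191 over all probe sets tested. Markers of a cell type also varied together, with 0.746 for the 11 oligodendrocyte and 0.185 for the 10 astrocyte markers. All pairs share the same 9 arrays, and the 2 probe sets each of Idi1 and Fdft1 name the same gene. Leaving out each array in turn gave 0.196 to 0.297 for the sterol branch, 0.269 to 0.427 for squalene to cholesterol, 0.106 (without yellow soybean replicate 1) to 0.346 for the mevalonate branch and 0.0911 to 0.187 for the fatty acid branch. Without green soybean replicate 3 the astrocyte value was 0.0366. Aligning array medians gave 0.282 for the sterol and 0.17 for the fatty acid branch. The correlation of a probe set's deviations with the mean of the other sterol probe sets over the 9 arrays was highest for Sqle at 0.846, Dhcr7 at 0.827 and the second Idi1 probe set at 0.784, and lowest for Lss at -0.212, Insig1 at -0.101 and Scap at 0.0118. This order rested in part on green soybean replicate 3. Without it the highest were Sqle at 0.982, Nsdhl at 0.971 and Hsd17b7 at 0.954, and the lowest Scap at -0.599, Insig1 at -0.444 and Srebf2 at -0.256. Srebf2 had stood at 0.283 over the 9 arrays. Insig2, also a regulator, stood at 0.446 over the 9 arrays and at 0.696 without green soybean replicate 3.

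When the sterol branch was averaged on each array, the spread within diets exceeded the distance between them. The mean deviation of the 25 sterol probe sets from their control mean was -0.0682, 0.00468 and 0.0636 on the control arrays, -0.0551, 0.00741 and 0.0721 with yellow soybean, and -0.00236, 0.0354 and -0.0698 with green soybean. The diet means were 0 ± 0.066 (SD, n = 3) for control, 0.00815 ± 0.0636 for yellow and -0.0122 ± 0.0533 for green soybean. For the 11 fatty acid probe sets the arrays stood at -0.0249, 0.0154 and 0.00951, then 0.0932, -0.0179 and 0.0372, and then 0.0631, 0.0417 and -0.0667. Their diet means were 0 ± 0.0218 for control, 0.0375 ± 0.0556 for yellow and 0.0127 ± 0.0696 for green soybean. The distance of yellow soybean from control was thus above the SD of the control arrays but below that of the yellow arrays. Here yellow soybean replicate 1 was the highest array, where it was among the lowest in the sterol branch.

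Markers of other cells were set beside these values. Of 12 listed oligodendrocyte markers 11 were measured, none at an exact 0, with a summed score of 9.93 to 12.2 in controls, 9.83 to 13 with yellow soybean and 9.18 to 12.1 with green soybean. Their mean deviation was -0.0996, 0.106 and -0.00588 on the control arrays, 0.182, 0.021 and -0.109 with yellow soybean and 0.0703, 0.0988 and -0.168 with green soybean. Yellow soybean replicate 1 was the highest of its diet in 11 of 11 of these markers and replicate 3 the lowest in 10, the opposite order to the sterol genes. In the other diets the lowest array was the same in both lists, with control replicate 1 lowest in 7 of 11 markers and green soybean replicate 3 in 10. The 10 astrocyte markers moved less, with array means between -0.0911, on green soybean replicate 3, and 0.0437. The part of these cell types in the sterol and fatty acid values was not tested.

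**Figure D5:**
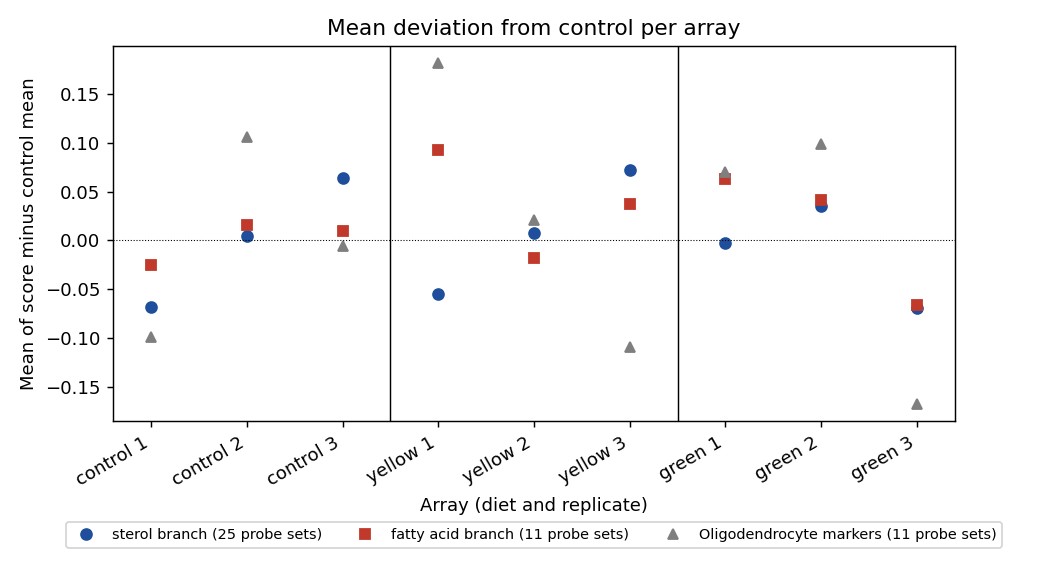
Mean over probe sets of the score minus its control mean, in score units (vertical axis), on each of the 9 arrays (horizontal axis) for the sterol branch, the fatty acid branch and oligodendrocyte markers. Sterol means run from -0.0698 to 0.0721 within and across diets alike, and yellow soybean replicate 1 is low for the sterol branch and high for the fatty acid branch and the oligodendrocyte markers.

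Other marker lists are given mainly for green soybean against control, where none of their genes passed the test. The 7 leptomeninges markers all had a difference above 0 with green soybean against control, with a median of 0.181. Their summed scores were -1.69 to -0.287 in controls and -0.557 to 0.9 with green soybean. Among them Fmod, Slc13a4, Igf2 and Slc6a20a were centred on the controls, so these sums mix levels with deviations. Of 7 measured choroid plexus markers 6 did, with a median of 0.223, and of 5 measured microglia markers 5 did, with a median of 0.103. Neuron markers had a median of -0.0191 over 8 genes, and the 3 measured markers of fat and liver, where Adipoq was at an exact 0 on an array, a median of 0.104. Over all probe sets 65.0% of these differences were above 0, with a median of 0.0296. Every green array exceeded every control in 1 of 7 leptomeninges, 1 of 7 choroid plexus and 2 of 5 microglia markers, as in 13.2% of all probe sets. With yellow soybean against control, 5 of 5 microglia markers were also above 0 (median 0.0975), as were 5 of 7 leptomeninges (0.0733) and 5 of 7 choroid plexus markers (0.0564). The part of these tissues in the member values was not tested.

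In the fatty acid branch, all green arrays lay above all yellow arrays in 1 of 11 probe sets (Fads1) and below them in 1 (Fads2). Over all probe sets these shares were 7.63% and 2.92%. Both genes encode desaturases of polyunsaturated fatty acids. Fads2, the delta-6 desaturase that starts the pathway, scored 1.78, 1.8 and 1.76 on the control arrays, 1.86, 1.87 and 1.78 with yellow soybean and 1.69, 1.77 and 1.73 with green soybean. All green arrays lay below all yellow arrays, and the control arrays overlapped both. Green soybean differed from yellow soybean by -0.106 ± 0.0497 (SE; 95% interval -0.214 to 0.00238, limma adjusted p = 0.712). Fads1, the delta-5 desaturase that acts after it and also lies on chromosome 19, scored 1.86, 1.9 and 1.86 in controls, 1.9, 1.81 and 1.89 with yellow soybean and 1.94, 1.93 and 1.94 with green soybean. Its green arrays lay above all others with an SD of 0.00463, and the difference from yellow soybean was 0.0715 ± 0.048 (SE; adjusted p = 0.781), or 0.0426 without yellow soybean replicate 2. Whether Fads1 and Fads2 respond differently was not tested.

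Acaca, the acetyl-CoA carboxylase that commits carbon to fatty acids, had the highest of the 36 differences of yellow soybean from control on its first probe set (10379820). It scored 0.288, 0.0843 and 0.174 in controls, 0.335, 0.234 and 0.307 with yellow soybean and 0.284, 0.285 and 0.0346 with green soybean. The difference was 0.11 ± 0.0761 (SE; limma adjusted p = 1), or 0.0609 without control replicate 2, and control replicate 1 lay within the yellow range. The second probe set (10394538) scored 0.809, 0.744 and 0.828, then 0.809, 0.808 and 0.756, and then 0.761, 0.816 and 0.739, with a difference of -0.00245. The first probe set's difference was therefore not seen on the second.

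Acly, the citrate lyase that supplies cytosolic acetyl-CoA to both branches, scored 0.705, 0.726 and 0.722 in controls, 0.695, 0.714 and 0.789 with yellow soybean and 0.762, 0.772 and 0.789 with green soybean. Its green arrays lay above the controls by 0.0569 on average (95% interval -0.0473 to 0.161, limma adjusted p = 0.73). Fasn, the fatty acid synthase, scored 1.22, 1.28 and 1.27, then 1.39, 1.17 and 1.29, and then 1.35, 1.27 and 1.06. Scd2, the main stearoyl-CoA desaturase of the brain, scored 2.25, 2.52 and 2.43, then 2.62, 2.26 and 2.43, and then 2.39, 2.53 and 2.13. In both Fasn and Scd2 yellow soybean replicate 1 was the highest and green soybean replicate 3 the lowest of the 9 arrays.

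Scd1, a second stearoyl-CoA desaturase, averaged 1.87 ± 0.0571 (SD, n = 3) in controls, 1.95 ± 0.0771 with yellow soybean and 1.86 ± 0.15 with green soybean. Elovl5, an elongase of polyunsaturated fatty acids, averaged 1.35 ± 0.0847, 1.39 ± 0.0943 and 1.41 ± 0.0332. Elovl6, the elongase that acts on palmitate, averaged 1.31 ± 0.15, 1.39 ± 0.113 and 1.34 ± 0.139. For Scd1, Elovl5 and Elovl6 the 95% interval of every difference between diets included 0.

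Of 45 other genes of sterol and fatty acid metabolism listed beside the members (transporters, further elongases and desaturases, LXR and lipin genes among them), 40 were measured on 41 probe sets and 0 passed the test in any comparison. With green soybean against control 23 differences were above 0 and 18 below, with yellow soybean against control 23 and 18, and with green against yellow soybean 24 and 17. Scd4, another stearoyl-CoA desaturase, scored -0.684, -0.613 and -0.607 in controls, -0.533, -0.526 and -0.6 with yellow soybean and -0.506, -0.466 and -0.443 with green soybean. All extract arrays lay above all controls, and the difference of green soybean from control was 0.163 ± 0.0497 (SE, limma adjusted p = 0.438). Green arrays lay above all controls in 13.2% of all probe sets and yellow arrays in 6.65%. The control mean of Scd4, -0.635, was below 0.176, the median score over uncentred probe sets. Scd3 differed by 0.189 for yellow soybean against control (adjusted p = 1), and Fads6 and Aacs, the acetoacetyl-CoA synthetase, by 0.134 and 0.123 for green against yellow soybean (adjusted p = 0.679 for Fads6).

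The authors' deposited table gives 1 p-value per probe set, for a test that is not named in the sources used here. Of the 35 member probe sets with such a value in the authors' deposited table, 10 were below 0.05, where 19.2% of all tested probe sets were. The 3 below 0.005 in the authors' deposited table were the 3 centred members, with 0.000556 for Insig1, 0.00171 for Pmvk and 0.00172 for Tm7sf2. This match is no separate result. Over all tested probe sets the authors' deposited value was at most 0.00497 where centred and at least 0.00501 where not.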

How the data were processed

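RNA from the hippocampus was hybridised to 9 arrays, 3 per diet. Per the labels' protocols, total RNA was prepared with an RNeasy kit and made into biotinylated cRNA. For every probe set the authors deposited a normalized score on each array, made by the SuperNORM service per the labels, and a single p-value, which the authors deposited without naming its test. A deposited parameter table gave the scale of the score (median 0.705, range 0.655 to 0.720), from which folds were computed for an assumed base of 10. Another 9 value columns match no label and were not used. How arrays were scanned and summarised is not given in the sources used here.

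Of 34760 probe sets, 6573 whose number precedes the first annotated probe set were left out, and 6228 of the other 28187 held an exact 0, read as no value. The remaining 21959 entered 1 model over the 9 arrays, fitted in R 4.3.3 by limma 3.58.1 (functions lmFit, contrasts.fit and eBayes, without an intensity trend). Tests were two-sided, with Benjamini-Hochberg adjustment over all probe sets and calls at an adjusted p below 0.05. The script was tested on simulated data. Of the tested probe sets, 1345 had been centred on the control mean, all with a deposited p-value of at most 0.00497. Names follow GEO's platform annotation, where 17824 tested probe sets had 1 gene symbol, 831 several and 3304 none. Precision is limited by the number of arrays.

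The members and lists were chosen with earlier results of these data known. Every member is named. All array values are given for a probe set past the threshold, for one that does not overlap between diets at an unadjusted p below 0.05, and for the 3 more in each branch with the smallest F-test p. Further members shown array by array were chosen after their values were seen. No label says that replicate numbers pair samples. Same-numbered samples of different diets had deviations correlating between -0.0817 and 0.165, and differently numbered ones between -0.169 and 0.186. With 3 arrays per diet this does not settle whether samples were paired. The alternatives were array medians aligned, quantile normalization, a filter on mean score with an intensity trend, exact zeros as missing, centred probe sets left out, array weights, only the arrays compared, a replicate block, and leaving out each array.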

Additional observations from a re-analysis of the deposited data

How the results depend on the processing

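The number of member probe sets past the threshold was 0 in all 4 tests under every alternative run. Over all probe sets, 1 was called for green soybean against control with array weights, and leaving out each array gave 0 to 1 for green soybean against control, green against yellow soybean and any difference, the 1 call arising without green soybean replicate 3 in each, and 0 for yellow soybean against control. The median of the fatty acid branch for green against yellow soybean, -0.0475, ran from -0.0904 to 0.0243 as each array was left out, the highest value being that without green soybean replicate 3. The other branch medians moved by less than the SD between arrays of a diet (0.0612 in the sterol and 0.0529 in the fatty acid branch), though several crossed 0. With array weights the sterol split for green against yellow soybean was 14 above and 11 below. With the replicate number as a block, 0 probe sets were called in each test, and Insig1 had an adjusted p of 0.454, where the alternatives that kept it ranged from 0.381 to 0.782. Of the member differences, 7 were followed through the alternatives one by one (Insig1, Sc5d, the first Idi1 and first Acaca probe sets, Mvk, Fads1 and Fads2, each in the comparison with its smallest p), and these kept their sign and were not called under any alternative run for them. Other members did change sign with the scaling or without single arrays, as the splits of each branch show. For arrays, signal over background was not available in the scores.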
